A study of Homo sapiens with 8 samples.

Results

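The clustered histone genes were taken by name, as every gene of the deposited expression table whose symbol begins with HIST1H, HIST2H, HIST3H or HIST4H. There were 73 of them among 25369 genes, and they comprised 6 H1, 18 H2A, 20 H2B, 14 H3 and 15 H4 genes. RNA sequencing compared HIF1A-KD with shCtrl in EPC2-hTERT, an epithelial line of the human esophagus that telomerase has immortalised. HIF1A-KD cells carried a lentiviral short hairpin RNA against HIF1A, the gene of the subunit through which HIF-1, a transcription factor, responds to oxygen. shCtrl cells carried a control hairpin, and each line gave 4 libraries, numbered 1 to 4. Both were stable lines, and the labels state neither the number of hairpins or clones nor whether the 4 libraries came from separate cultures, so p-values measure the spread between these libraries, which may be technical. Both were grown for 2 days to confluence on membranes with 0.4 µm pores, kept for 5 days with 1.8 mM calcium chloride and then held at the air-liquid interface for 4 days, which lets keratinocytes form layers. A vehicle and 1 mM dimethyloxalylglycine, an inhibitor of prolyl hydroxylases, for 18 h, are named in the labels too, but neither is tied to a library.

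Histones H2A, H2B, H3 and H4 form the protein core of the nucleosome, and H1 binds the DNA that links nucleosomes. The clustered genes are known as the replication-dependent histone genes: they are transcribed mainly in S phase, most have no intron, and their mRNAs typically end in a conserved stem-loop instead of a poly(A) tail. The stem-loop is bound by SLBP, which directs 3′ end formation and translation. In cells that have left the cell cycle, some clustered genes are known to give spliced or polyadenylated mRNA instead. Whether these libraries were made from poly(A)-selected RNA was not given in the sources used here, so for a gene at a low level, little mRNA and mRNA that the library step did not take cannot be told apart.

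The sequences below show the stem-loops, which mark the usual end of these mRNAs, and the promoters of 3 genes. These 3 passed a test described further on, for which HIST1H3H qualified only through its level in HIF1A-KD. All 73 genes were matched by name to GENCODE v29 transcripts. GENCODE annotates HIST1H2APS1 (H2A), HIST2H2BA and HIST2H2BC (both H2B) as pseudogenes, and they are counted with their types throughout. A stem of 6 perfectly paired bases that begins with GG, around a loop of 4 bases that begins with TT, was searched. It was found in a transcript of 30 of the 73 genes, and the matches fell into 4 sequences. Capitals mark the paired stem, on the transcript's strand with T for U.
H2A, H2B and H3 genes (17 genes): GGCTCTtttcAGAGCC
H2B and H3 genes (5 genes): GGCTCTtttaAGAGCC
H4 genes (5 genes): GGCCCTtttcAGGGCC
H4 genes (3 genes): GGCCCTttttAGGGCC
The H4 stems differed from the others at the same position on each arm and, within this search, loops varied only at the last base. For 32 members, HIST1H2BK and HIST1H1C among them, the longest annotated transcript ends with the coding sequence, so the bases after it were not searched. All 30 matches were among 38 members with a longer transcript, and other forms of the stem-loop were not searched.

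RefSeq promoter windows (GRCh38.p14, 250 bases before to 50 bases after the annotated start) were at hand for 65 of the 73 genes. Capitals mark the octamer ATTTGCAT, known as the binding site of the factor Oct-1 in H2B promoters, the TATA box letters TATAAA and the CCAAT box letters CCAAT, each searched on both strands.
HIST1H2BK (H2BC12), minus strand, chr6:27146809-27147108: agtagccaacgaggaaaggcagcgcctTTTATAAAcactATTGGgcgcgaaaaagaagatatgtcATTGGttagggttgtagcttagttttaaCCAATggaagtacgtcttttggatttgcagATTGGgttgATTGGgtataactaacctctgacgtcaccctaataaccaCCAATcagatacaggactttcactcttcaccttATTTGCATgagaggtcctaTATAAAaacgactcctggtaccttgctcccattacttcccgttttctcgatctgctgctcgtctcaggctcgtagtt
HIST1H1C (H1-2), minus strand, chr6:26056421-26056720: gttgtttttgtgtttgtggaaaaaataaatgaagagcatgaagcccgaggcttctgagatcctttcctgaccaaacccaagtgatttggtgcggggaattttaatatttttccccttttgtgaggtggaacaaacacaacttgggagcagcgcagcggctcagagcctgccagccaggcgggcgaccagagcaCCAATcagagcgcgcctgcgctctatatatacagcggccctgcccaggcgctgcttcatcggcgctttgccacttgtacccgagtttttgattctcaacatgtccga
HIST1H3H (H3C10), plus strand, chr6:27809801-27810100: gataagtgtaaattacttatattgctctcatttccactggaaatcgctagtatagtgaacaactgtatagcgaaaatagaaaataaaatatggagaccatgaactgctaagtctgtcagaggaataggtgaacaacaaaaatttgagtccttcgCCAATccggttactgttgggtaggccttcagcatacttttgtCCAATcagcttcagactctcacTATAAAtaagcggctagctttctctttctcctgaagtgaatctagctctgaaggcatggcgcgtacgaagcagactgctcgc
In the HIST1H2BK window the octamer began 46 bases before the start and a TATA box 27 bases before it. CCAAT letters stood at 6 places. The run TTTATAAA at the far end, which holds overlapping TATA letters on both strands, lies towards HIST1H2AH, the H2A gene transcribed away from HIST1H2BK. The HIST1H3H window held a TATA box 32 bases before the start and CCAAT letters at 2 places, and the HIST1H1C window held CCAAT letters at 1 place only.

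The octamer was frequent in H2A and H2B windows, in tested and untested genes alike. It was present in 14 of 18 H2B windows (77.8%) and 11 of 16 H2A windows (68.8%), against 1 of 12 H3, 0 of 6 H1 and 0 of 13 H4 windows and 2.19% of 27305 genes. Among H2B genes it stood in 7 of 10 that were high enough to be tested and in 7 of 8 that were not. TATAAA was found in 44 of 65 members (67.7%) against 14% of all genes. CCAAT was found in 55 of 65 members (84.6%) against 39.7% of all genes, and H4 stood apart with 3 of 13. These matches are letters in a window of fixed length and no measure of binding. The windows are also not all separate. In 12 pairs an H2A and an H2B gene transcribed away from each other start 223 to 346 bases apart. Their windows overlap, so 1 octamer can count for both genes. HIST1H3D, the H3 gene with an octamer, has the same start in the table as the H2A gene HIST1H2AD.

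Levels are given as RPKM, reads scaled by gene length and by the library's total, as the authors deposited them. The values implied 38068729 to 65326907 reads per HIF1A-KD library and 43205845 to 52401547 per shCtrl library. Genes that reached 0.5 RPKM in 4 or more libraries were tested with limma on log2(RPKM + 0.1), a scale that understates the change of low genes, and p-values were adjusted by Benjamini and Hochberg over all 11899 genes kept. Besides this unpaired fit, a paired fit took the library number as a block. No label gives this pairing, and libraries 3 and 4 correlated better when crossed (0.463 and 0.613, against 0.252 and 0.257). Paired results and counts of pairs rest on the numbering, and a crossed fit was not run. HIF1A itself had 27.6, 19.0, 54.8 and 45.0 RPKM in HIF1A-KD 1 to 4, against 95.2, 51.4, 89.8 and 122 RPKM in shCtrl 1 to 4. It was lower in 4 of 4 numbered pairs, and the groups overlapped (log2 change −1.34, limma adjusted p = 0.319 unpaired and 0.0253 paired). All 15 squamous epithelium markers were high enough to be tested, led by KRT6A (10474 ± 2562 against 11445 ± 2113 RPKM) and KRT5 (4977 ± 381 against 5261 ± 991 RPKM; SD, n = 4 each). KRT10, a keratin of differentiating layers, rose in the paired fit (limma adjusted p = 0.0432, against 0.0873 unpaired) and CDH1, which encodes E-cadherin, fell (0.0318, against 0.545 unpaired). KRT4 and KRT13, keratins of the esophageal lining, averaged 1521 ± 355 and 801 ± 330 RPKM in HIF1A-KD, against 386 ± 242 and 253 ± 289 RPKM in shCtrl, and passed neither fit (limma adjusted p = 0.107 unpaired and 0.0786 paired for KRT4, 0.464 and 0.116 for KRT13). Groups did not overlap for KRT4 and overlapped for KRT13. In bulk RNA, fewer cells that express a gene and less of its mRNA per cell cannot be told apart.

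Most clustered histone genes were listed at very low levels. Of the 73, 19 were at 0 in every library, 30 were above 0 but too low to be tested, and 24 were kept. Only 7 averaged at least 10 RPKM over the 8 libraries, and 5 of these were H2B genes. HIST1H1C led with 55.0 RPKM, followed by HIST1H2AC at 43.5, HIST1H2BK at 40.1 and HIST1H2BD at 37.4 RPKM. HIST2H2BE (13.7), HIST1H2BC (13.6) and HIST1H2BG (11.8) stood well below them.

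Detection differed by histone type. H2B had 11 of 20 genes kept and 1 at 0 throughout, whereas H4 had 3 of 15 kept and 6 at 0. H3 had 3 of 14 kept and 5 at 0, H2A had 5 of 18 kept and 6 at 0, and H1 had 2 of 6 kept and 1 at 0. By cluster, 19 of the 56 HIST1H genes on chromosome 6 were kept, with 2 of 13 HIST2H genes, 2 of 3 HIST3H genes and the only HIST4H gene, HIST4H4. The highest genes that were not kept averaged 0.737 RPKM for HIST1H1D, 0.277 for HIST1H2AM, 0.148 for HIST2H2BF, 0.170 for HIST1H3A and 0.0904 for HIST1H4K. The next in each type were HIST1H1B (0.121), HIST2H2AC (0.230), HIST1H2BL (0.116), HIST1H3G (0.0671) and HIST1H4C (0.0319 RPKM).

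**Figure D1:**
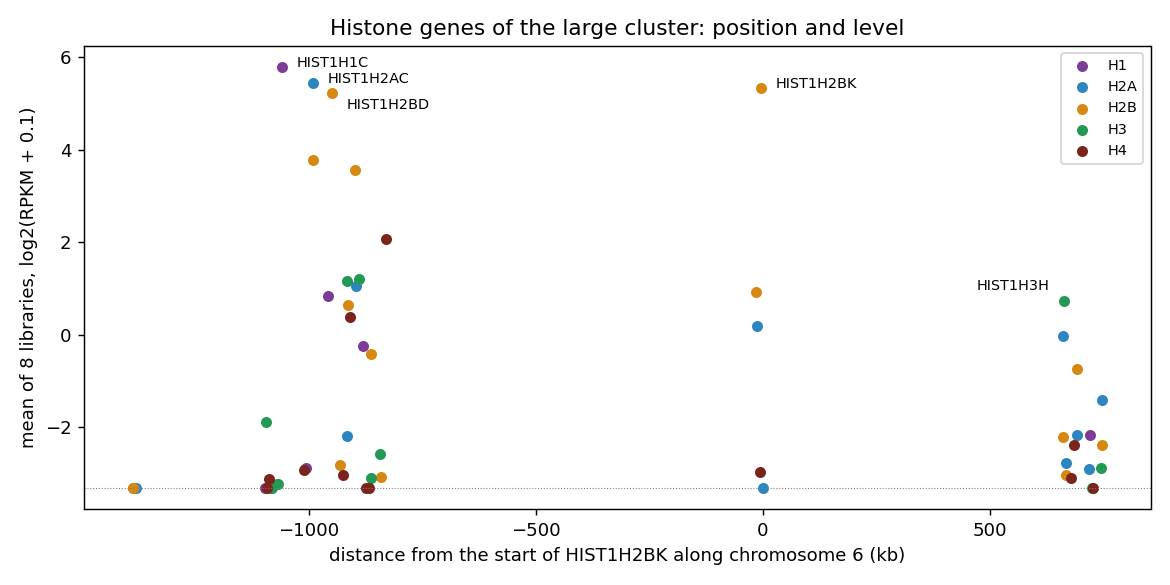
Mean level over the 8 libraries (log2(RPKM + 0.1)) of each histone gene of the large cluster against its distance from the start of HIST1H2BK along chromosome 6, coloured by histone type, with the dotted line at 0 RPKM. HIST1H1C, HIST1H2AC and HIST1H2BD stand together at 1 end, HIST1H2BK stands alone near the middle, and genes at or near 0 lie between high ones.

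Similar copies may share reads. The coding sequences of HIST2H2AA3 and HIST2H2AA4, of HIST2H3A and HIST2H3C and of HIST2H4A and HIST2H4B were 100% identical within each pair, and all 6 genes were listed at 0 in every library, with 2 genome positions each in the table. HIST1H4J and HIST1H4K were also 100% identical in coding sequence, and had 3 and 13 reads in all 8 libraries together. H3F3A, which encodes the variant H3.3 and has many processed pseudogenes, was close to 0 (0.0268 and 0.0349 RPKM in HIF1A-KD and shCtrl). H3F3B, which encodes the same protein, was among the most abundant histone genes. How reads with several matches were counted was not given in the sources used here, and their part in any of these levels was not tested. Members of 1 type were close in sequence, with a median identity to the nearest copy of the same length of 90.7% for H2A, 93.2% for H2B, 88.1% for H3 and 87.7% for H4. Of the stretches of 50 coding bases in HIST1H2BK, 77.4% occurred in no other clustered histone gene, and its nearest copy was HIST1H2BE at 94.0%. This share was 100% for HIST1H1C and HIST1H3H, 47.6% for HIST2H2BE and 17.7% for HIST1H2AI, the lowest among tested genes. These shares cover coding bases only, which are 381 of the 2223 bases in the table's model of HIST2H2BE.

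Annotated gene structure differed between members and between annotations. GENCODE lists a spliced transcript, or the polyadenylation letters AATAAA within the last 50 bases of a transcript, for 26 members. None of the 32 members whose longest transcript ends with the coding sequence had either feature, so levels were not compared by it. Of the 7 members that averaged at least 10 RPKM, HIST1H2BK, HIST1H1C and HIST1H2BG had neither feature in GENCODE. In the table's own gene models 5 members had an intron, and HIST1H2BK, HIST1H2BD and HIST1H3D, 3 of the 5, were kept. HIST1H2BK (chromosome 6, 27106072 to 27114637, minus strand, hg19) spans 8566 bases, of which 839 are exon. HIST1H4I lies within that span on the opposite strand and had 4 reads in all 8 libraries together. The model of HIST1H3D contains HIST1H2AD on the same strand, so their reads cannot be fully separated. Whether strand was used in counting was not stated in the sources used here.

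**Figure D2:**
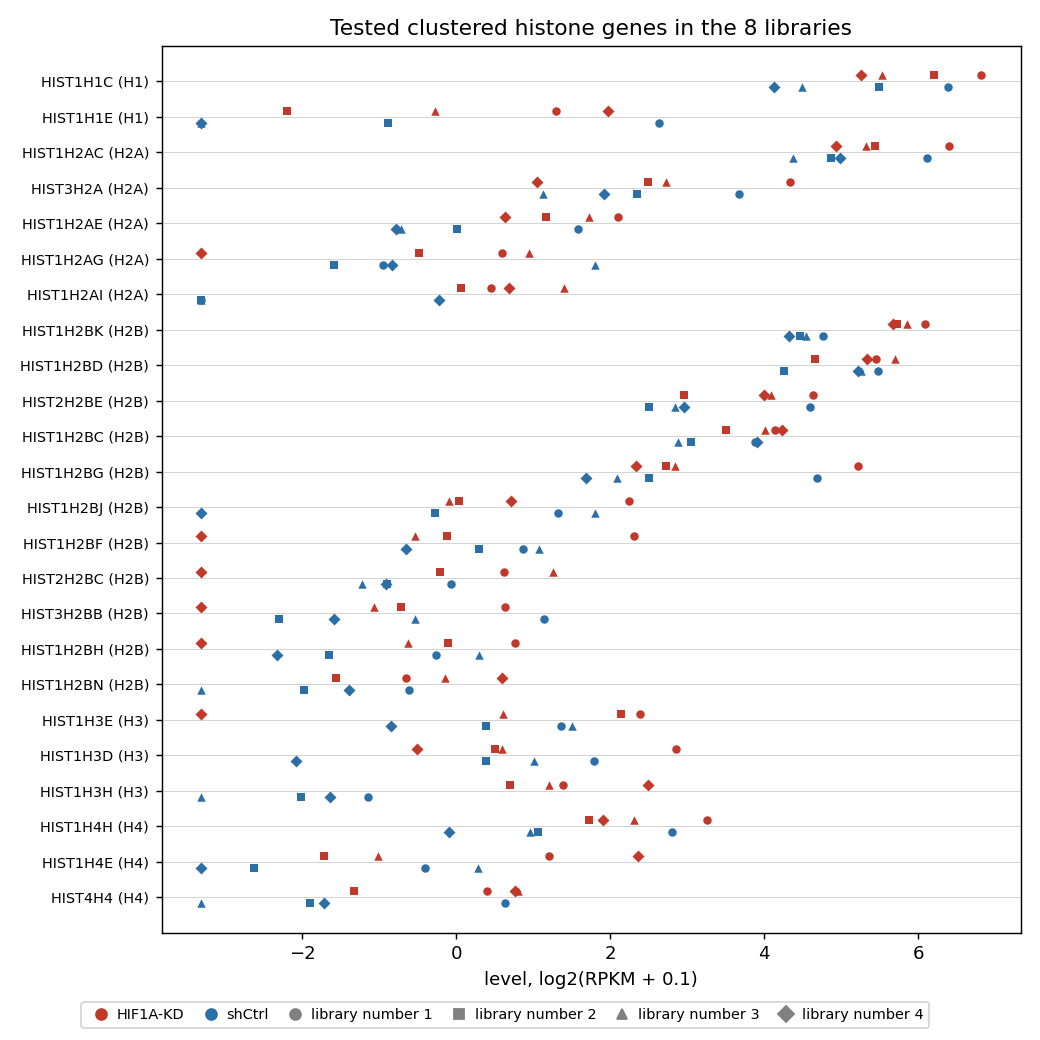
Level of each of the 24 tested clustered histone genes in each library, as log2(RPKM + 0.1), with HIF1A-KD in red on the upper line of each gene, shCtrl in blue on the lower line, and the symbol showing the library number. The red symbols of HIST1H2BK, HIST1H3H and HIST1H2AI lie wholly to the right of the blue ones, and points at the left edge are libraries at 0.

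HIST1H2BK, an H2B gene, was the member with the clearest difference, 2.48-fold higher with the HIF1A hairpin. It had 67.9, 52.6, 57.6 and 50.8 RPKM in HIF1A-KD 1 to 4, against 27.0, 21.9, 23.3 and 20.0 RPKM in shCtrl 1 to 4. The groups did not overlap, and the lowest HIF1A-KD library was well above the highest shCtrl library. The means were 57.2 ± 7.66 and 23.0 ± 2.95 RPKM (SD, n = 4 each), a ratio of 2.48. These rest on 1623 to 2882 reads per HIF1A-KD library and 795 to 1095 per shCtrl library. The log2 change of 1.31 (SE 0.16) passed the unpaired limma test (adjusted p = 0.0482) and the paired one (0.00435), and was higher in 4 of 4 pairs. It was the only member among the 5 genes called unpaired (0.042% of the genes tested) and 1 of 3 called higher (0.0252%). A two-sided exact permutation test, 4 against 4, gave p = 0.0286, the smallest it can give. With any 1 of the 8 libraries left out the log2 change was 1.22 to 1.39, but the unpaired adjusted p then ran from 0.0698 to 0.184 and no longer passed. Leaving out both libraries numbered 1 ended the unpaired call, and leaving out both numbered 2 ended the paired call (0.0586).

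HIST1H2AH, the H2A gene that starts 223 bases from HIST1H2BK on the other strand, was at 0 in all 8 libraries. Such head-to-head H2A and H2B genes share a promoter region, and 12 pairs were found in the table, with gaps of 223 to 346 bases. In 4 pairs both genes were kept, in 5 only 1 was, and in 3 neither was. HIST2H2BE averaged 13.7 RPKM beside HIST2H2AC at 0.230, and HIST1H2BG 11.8 beside HIST1H2AE at 1.97 RPKM. The order was turned round for HIST1H2AC at 43.5 beside HIST1H2BC at 13.6, and for HIST3H2A at 7.18 beside HIST3H2BB at 0.671 RPKM. The H2B gene was the higher of the 2 in 6 pairs. Of 30 other genes that start inside the cluster on chromosome 6, 14 were high enough to be tested and none passed either limma fit or limma-voom (median log2 change 0.16, unadjusted p at most 0.05 for 2, both higher, in each). The only one within 100 kb of HIST1H2BK was MIR3143, listed at 0 throughout.

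HIST1H1C, which encodes a linker histone, was higher in every pair but varied widely between libraries. It had 113, 73.8, 46.3 and 38.3 RPKM in HIF1A-KD 1 to 4, against 83.9, 45.0, 22.4 and 17.4 RPKM in shCtrl 1 to 4. The 4 libraries ranked in the same order in both lines, and the groups overlapped. The means of 67.9 ± 33.8 and 42.2 ± 30.3 RPKM (SD, n = 4 each) differed by less than the spread without pairing (log2 change 0.83, SE 0.52, limma adjusted p = 0.807). With the number as a block the SE was 0.14 and the change passed (adjusted p = 0.0451). It no longer passed when both libraries of any 1 number were left out (0.0633 to 0.223). HIST1H1E, another linker histone gene, had 0.117 to 3.81 RPKM in HIF1A-KD and 0 to 6.08 in shCtrl, and was higher in 2 of 4 pairs. HIST1H1C made up 95.5% of the summed H1 level.

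HIST1H3H, an H3 gene, was low but almost absent from shCtrl. It had 2.50, 1.52, 2.19 and 5.50 RPKM in HIF1A-KD 1 to 4 (47 to 99 reads), against 0.349, 0.147, 0 and 0.221 RPKM in shCtrl 1 to 4 (0 to 8 reads). Every HIF1A-KD library was above every shCtrl library. No shCtrl library reached the filter level, so the gene was tested only because it was higher in HIF1A-KD, and its difference is a description for that reason. The log2 change of 3.47 (SE 0.55) had a limma adjusted p of 0.0629 unpaired and 0.0224 paired. The paired value was 0.0883 without number 1 and 0.145 without number 2. The other tested H3 genes did not separate the groups. HIST1H3E averaged 2.71 ± 2.41 and 1.71 ± 1.07 RPKM, and HIST1H3D 2.61 ± 3.04 and 1.65 ± 1.35 RPKM, in HIF1A-KD and shCtrl (SD, n = 4 each). On the log2 scale HIST1H3E changed by −0.14, the other way from its means, and was higher in 2 of 4 pairs. HIST1H3D changed by 0.58 and was higher in 3 of 4 pairs.

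**Figure D3:**
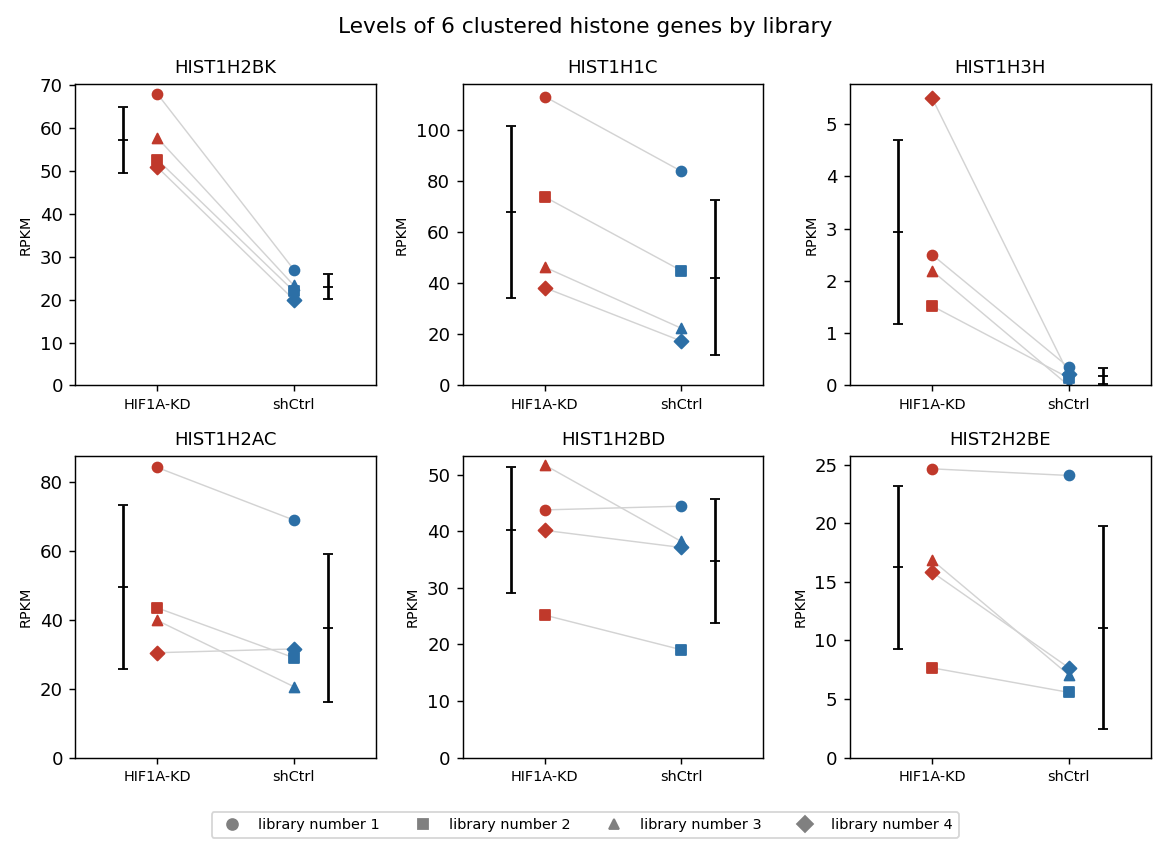
RPKM of HIST1H2BK, HIST1H1C, HIST1H3H, HIST1H2AC, HIST1H2BD and HIST2H2BE in each library, HIF1A-KD left and shCtrl right, with grey lines joining libraries of the same number and black bars giving the mean ± SD (n = 4 each). The groups are apart for HIST1H2BK and HIST1H3H, and for HIST1H1C the lines run in parallel through overlapping groups.

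Among H2A genes, HIST1H2AC carried 78.5% of the summed level and did not pass either test. It had 84.2, 43.5, 39.8 and 30.5 RPKM in HIF1A-KD 1 to 4, against 69.0, 29.0, 20.6 and 31.6 RPKM in shCtrl 1 to 4. Library 1 was the highest of each line, and number 4 went against the others. With numbers 3 and 4 crossed, each HIF1A-KD library was above its shCtrl partner. HIST1H2AI separated the groups at a low level, with 1.26, 0.947, 2.53 and 1.51 RPKM in HIF1A-KD 1 to 4, against 0, 0, 0 and 0.759 in shCtrl 1 to 4. Its log2 change of 3.20 had a limma adjusted p of 0.219 unpaired and 0.0668 paired, and only 1 shCtrl library reached the filter level. The paired value was 0.0236 without number 4, which left every shCtrl library at 0. The gene was kept through HIF1A-KD, so its difference is a description, as for HIST1H3H. HIST1H2AE averaged 2.74 ± 1.21 and 1.20 ± 1.15 RPKM and was higher in 4 of 4 pairs (log2 change 1.38, adjusted p = 0.561). HIST3H2A averaged 8.50 ± 7.92 and 5.85 ± 4.69 RPKM, and HIST1H2AG 0.963 ± 0.816 and 1.12 ± 1.5 RPKM (HIF1A-KD and shCtrl, SD, n = 4 each). Neither differed beyond the spread between libraries.

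None of the other 10 tested H2B genes passed either limma fit, and their groups overlapped. HIST1H2BD, whose table model is spliced like that of HIST1H2BK, had 43.8, 25.2, 51.7 and 40.1 RPKM in HIF1A-KD 1 to 4, against 44.4, 19.1, 38.2 and 37.1 in shCtrl 1 to 4 (log2 change 0.23, limma adjusted p = 0.966). Its groups overlapped almost fully. HIST2H2BE had 24.6, 7.66, 16.9 and 15.8 RPKM in HIF1A-KD 1 to 4, against 24.1, 5.57, 7.07 and 7.68 in shCtrl 1 to 4 (log2 change 0.69, adjusted p = 0.842). HIST1H2BC averaged 15.9 ± 3.26 and 11.2 ± 4.08 RPKM (log2 change 0.55, adjusted p = 0.744). These 2 genes and HIST1H2BG were higher in 4 of 4 pairs without passing either test. HIST1H2BG was dominated by library 1, with 37.0 RPKM against 4.96 to 7.09 in the other HIF1A-KD libraries, and 25.7 RPKM against 3.10 to 5.57 in the other shCtrl libraries. The 6 lower H2B genes, which were HIST1H2BJ, HIST1H2BF, HIST2H2BC, HIST3H2BB, HIST1H2BH and HIST1H2BN, averaged 0.496 to 1.80 RPKM over all libraries. Their log2 changes ran from −0.81 for HIST1H2BF to 1.38 for HIST1H2BN, and none passed.

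H4 genes were low throughout. HIST1H4H, with 64.7% of the summed H4 level, had 9.49, 3.19, 4.87 and 3.65 RPKM in HIF1A-KD 1 to 4, against 6.85, 1.98, 1.84 and 0.840 in shCtrl 1 to 4. It was higher in 4 of 4 pairs, with overlapping groups (log2 change 1.12, SE 0.58, limma adjusted p = 0.739 unpaired and 0.102 paired). HIST1H4E averaged 1.96 ± 2.23 and 0.458 ± 0.528 RPKM, and HIST4H4, on chromosome 12, 1.19 ± 0.624 and 0.456 ± 0.671 RPKM, in HIF1A-KD and shCtrl (SD, n = 4 each). Their log2 changes of 1.72 and 1.74 had SEs of 1.08 and 0.84 and did not pass.

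**Figure D4:**
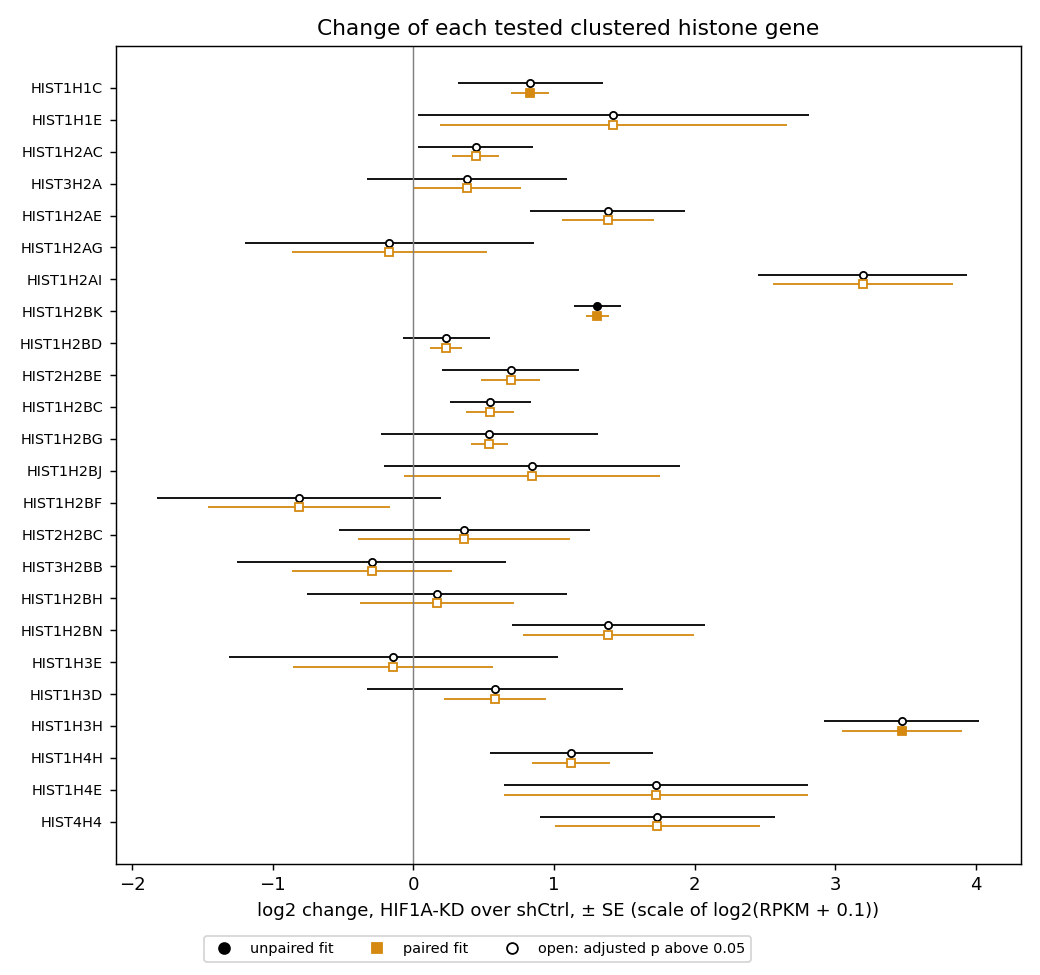
Log2 change of each tested clustered histone gene, HIF1A-KD over shCtrl, on the scale of log2(RPKM + 0.1), with bars of ± 1 SE from the unpaired fit (black circles) and the paired fit (orange squares), filled where the adjusted p is at most 0.05. HIST1H2BK is filled in both fits, HIST1H1C and HIST1H3H in the paired fit only, and 20 of 24 genes lie right of 0.

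Taken by count, 20 of the 24 tested members had a log2 change above 0, against 58.7% of all genes tested, and the median was 0.64 against 0.064 for all genes. Members higher in 4 of 4 pairs numbered 9, against 18.6% of all genes, and 0 were lower in all 4 (10.7% of all genes). Groups did not overlap for 3 members, all higher, against 3.27% of all genes higher and 2.13% lower. The paired fit called 3 members, all higher, against 0.74% of all genes called higher. These counts describe the genes that passed the filter and carry no test, because a gene kept only through the group where it is high had to differ. Of the 24, 7 had at most 1 shCtrl library at the filter level, and 0 had at most 1 HIF1A-KD library there. Of the 7 members that averaged at least 10 RPKM, all of which reached the filter level in every library, 7 had a log2 change above 0 with a median of 0.55. The authors' deposited table holds 23 members, of which 3 have an adjusted p of at most 0.05, all higher, against 3.94% of its genes called higher and 9.02% called in either direction. In the authors' deposited table these are HIST1H2BK (moderated log2 ratio 1.19, adjusted p = 1.09e-19), HIST1H3H (1.15, 0.0017) and HIST1H1C (0.68, 0.00173). These moderated ratios are another measure than the limma changes and the ratios of means: for HIST1H3H the authors' deposited table gives a mean normalised signal of 64.8 in HIF1A-KD and 4.11 in shCtrl, which differ by more than its moderated ratio.

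Summed over all 73 genes, the level was 466, 247, 271 and 229 RPKM in HIF1A-KD 1 to 4, against 340, 149, 145 and 142 RPKM in shCtrl 1 to 4. Library 1 stood above the rest in each line, and every HIF1A-KD library was above its shCtrl partner, by 1.37 to 1.87 times. The means were 303 ± 110 and 194 ± 97.3 RPKM (SD, n = 4 each), a ratio of 1.56, or 1.44 without HIST1H2BK (246 ± 103 and 171 ± 94.7 RPKM). The log2 ratio of 0.64 became 0.36 without HIF1A-KD 1 and 1.06 without shCtrl 1. By type, H1 summed to 70.4 ± 34.4 and 44.8 ± 34.6 RPKM, H2A to 64.5 ± 33.2 and 46.3 ± 26.6, and H2B to 151 ± 41.9 and 95.3 ± 34.9 RPKM in HIF1A-KD and shCtrl. H3 summed to 8.71 ± 4.88 and 3.80 ± 2.48 RPKM and H4 to 8.74 ± 4.17 and 3.90 ± 3.67 RPKM in the same order of groups. Each sum was higher in 4 of 4 pairs except H2A, with 3. The exception was number 4 (36.8 RPKM in HIF1A-KD against 37.3 in shCtrl) and rests on how numbers 3 and 4 are paired. HIST1H2BK made up 38.0% of the H2B sum in HIF1A-KD and 24.2% in shCtrl, and without it the H2B sums were 93.5 ± 34.8 and 72.3 ± 32.5 RPKM. HIST1H3H made up 33.6% of the H3 sum in HIF1A-KD and 4.72% in shCtrl. Sums over a type are less touched by how reads were split between copies. They would still miss any reads left uncounted for having several matches, and they carry no test here.

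**Figure D5:**
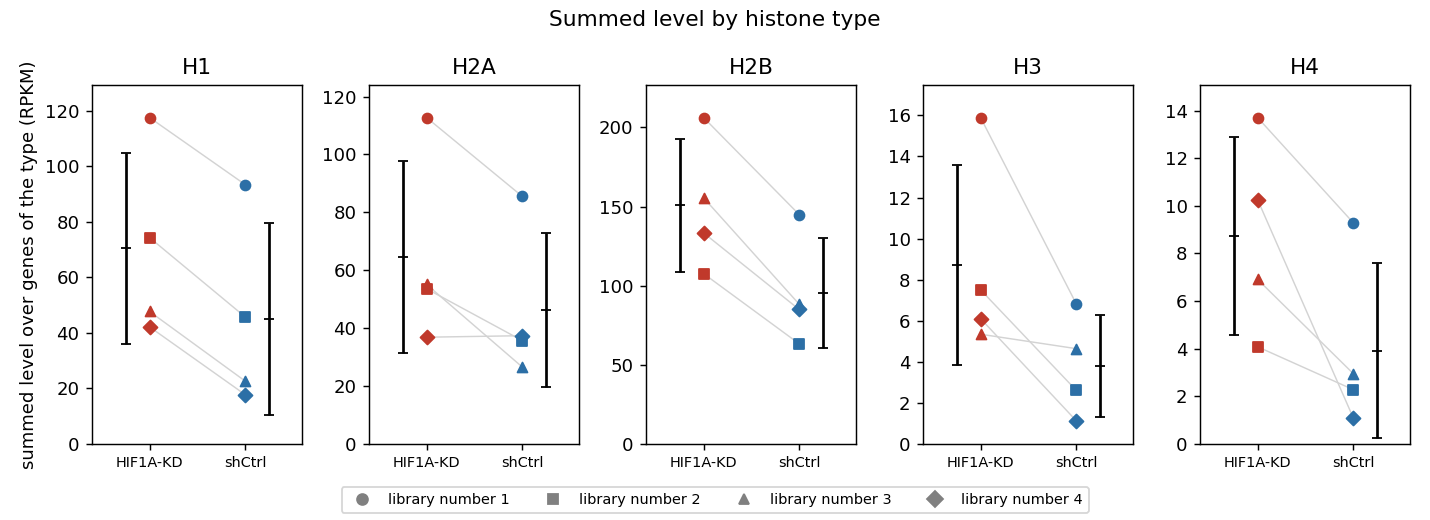
Summed RPKM over the genes of each histone type in each library, HIF1A-KD left and shCtrl right, with grey lines joining libraries of the same number and bars giving the mean ± SD (n = 4 each); each panel has its own scale. Library 1 is the highest of its line in every panel, and groups overlap in all 5 types.

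The high level of library 1 was shared across members. HIF1A-KD 1 was the highest of its line for 14 of the 24 tested members, and shCtrl 1 for 16 of 24. All clustered histone genes together took 0.0343% of the reads in HIF1A-KD 1 and 0.0182% to 0.0214% in HIF1A-KD 2 to 4, against 0.0260% in shCtrl 1 and 0.0109% to 0.0112% in shCtrl 2 to 4. Replication genes had no common highest library. Of the 29 tested S phase genes, 6 were highest in library 1 of both lines. MCM7, a subunit of the replicative helicase, had 13.7 RPKM in HIF1A-KD 1 against 4.65 to 7.37 in the other HIF1A-KD libraries. In shCtrl 1 MCM7 had 15.2 RPKM, against 6.34 to 7.56 in the other shCtrl libraries. MCM2 to MCM6, further subunits, were highest in library 2 of both lines. MCM4 had 10.7 RPKM in HIF1A-KD 2 against 7.79 to 9.16 in the other HIF1A-KD libraries. In shCtrl 2 MCM4 had 14.0 RPKM, against 6.88 to 9.65 in the other shCtrl libraries. Of the 24 tested histone members, 10 were highest in library 1 of both lines. The summed level of the 44 listed S phase genes, which PCNA and SLBP led, was 154, 163, 153 and 141 RPKM in HIF1A-KD 1 to 4, against 166, 197, 156 and 146 RPKM in shCtrl 1 to 4. The 5 endothelial markers summed to 12.8, 5.03, 1.39 and 1.47 RPKM in HIF1A-KD 1 to 4, against 15.6, 1.81, 1.34 and 0.753 in shCtrl 1 to 4. Nearly all of this was VWF, while PECAM1 and CDH5 were at or near 0 in all libraries. The part of these in the level of library 1 was not tested.

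Genes outside the clusters that make or handle histones showed no called change. Of 13 replication-independent and variant histone genes, 9 were tested and 0 passed either limma fit or limma-voom (unadjusted p at most 0.05 for 1, 2 and 1 of them, all higher), with 4 above 0 and a median log2 change of −0.07. They were far more abundant than the clustered genes, summing to 1078 ± 95.2 and 1118 ± 73.0 RPKM in HIF1A-KD and shCtrl (SD, n = 4 each). H1F0, the linker histone of differentiated cells, averaged 451 ± 98.8 and 555 ± 111 RPKM. H3F3B had 221, 270, 225 and 271 RPKM in HIF1A-KD 1 to 4, against 155, 200, 172 and 167 RPKM in shCtrl 1 to 4. Its groups did not overlap, and its log2 change of 0.51 had a limma adjusted p of 0.387 unpaired and 0.0502 paired.

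None of the lists for histone mRNA, chaperones, the cell cycle or histone promoters held a gene called by either limma fit or by limma-voom. At an unadjusted p of at most 0.05, the unpaired fit had 0 of their genes, and the paired fit had 2 of 3′ end processing, 3 chaperones and 1 promoter factor higher and 2 S phase genes and 1 mitotic gene lower. In limma-voom 1 mitotic gene was higher at that level. All 18 genes of histone mRNA 3′ end processing and decay were tested, with a median log2 change of 0.08. SLBP averaged 21.2 ± 3.49 and 26.2 ± 3.32 RPKM, and FIP1L1, a subunit of the polyadenylation machinery, 28.8 ± 15.3 and 22.5 ± 10.5 RPKM (HIF1A-KD and shCtrl, SD, n = 4 each). Of 19 histone chaperones, 17 were tested (median 0.06), led by NAP1L1 at 59.9 ± 11.3 and 49.4 ± 9.77 RPKM and SSRP1 at 50.0 ± 12.5 and 51.1 ± 8.38 RPKM. Of the 44 S phase genes, 29 were tested (median −0.01), and PCNA, the sliding clamp of DNA polymerase, averaged 32.5 ± 9.42 and 38.0 ± 5.42 RPKM. Mitotic genes were low, with 6 of 22 tested (median −0.08), led by PTTG1 at 12.7 ± 5.91 and 10.4 ± 3.93 RPKM and CDC20 at 1.44 ± 0.960 and 2.23 ± 1.70 RPKM. All 10 cell cycle inhibitors were tested (median 0.15), with CDKN1A at 435 ± 155 and 428 ± 118 RPKM and CDKN2B at 33.1 ± 17.8 and 18.6 ± 8.58 RPKM. Of 16 factors known at histone promoters, 15 were tested (median 0.15), with YY1 at 31.7 ± 2.75 and 28.4 ± 3.15 RPKM and SP1 at 17.6 ± 3.25 and 16.1 ± 4.24 RPKM.

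Of 10 HIF pathway genes, 9 were tested, and HIF1A alone passed, in the paired fit; EPAS1, which encodes HIF-2α, averaged 48.6 ± 13.7 and 46.3 ± 13.6 RPKM in HIF1A-KD and shCtrl. Markers of other cell types were few. Of 9 fibroblast markers only COL1A1 was tested, at 15.6 ± 2.43 and 23.7 ± 2.84 RPKM, and POSTN, the next, stayed under 1 RPKM. CD68 (51.0 ± 27.6 and 71.2 ± 40.2 RPKM) and CD14 (3.26 ± 2.02 and 4.85 ± 3.65 RPKM) were tested among 10 leukocyte markers, while PTPRC, the pan-leukocyte marker, was at 0 in every library. VWF, among 5 endothelial markers, and PMEL, among 5 melanocyte markers (0.985 ± 0.747 and 0.671 ± 0.238 RPKM), were the only ones tested of their lists. None of these marker genes passed either limma fit, and an unadjusted p of at most 0.05 was found for COL1A1 in both fits and for 1 leukocyte marker in the paired fit, both lower.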

How the data were processed

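RNA was sequenced from 8 libraries, 4 HIF1A-KD and 4 shCtrl, grouped by the sample titles. Per the labels' protocols, RNA was purified on columns and a NEBNext Ultra kit was used for the libraries. The submitters' processing notes name HTSeq 0.6.1, Picard 1.129, TopHat2 2.0.13 with Bowtie2 2.2.3.0, FastQC 0.11.5, bcl2fastq and SAMtools 1.3.1 as tools. They name both GRCh37/hg19 and GRCh38/hg38; the table's haplotype contig names are those of hg19, so its coordinates are given as hg19. RefSeq promoters (GRCh38.p14) and GENCODE v29 were matched by name, and no coordinates were converted.

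The deposited expression table holds RPKM made by the authors for 25369 genes. With gene length, values gave whole reads (within 0.01 read) for 100% of genes, except 597 whose length could not be read. A second table deposited by the authors holds each group's mean normalised signal, a ratio, its log2 and p-values. It was used only where named.

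The test was limma 3.58.1 (R 4.3.3), two-sided with robust and trended moderation, on log2(RPKM + 0.1) of 11899 genes that reached 0.5 RPKM in 4 or more libraries, and a threshold of 0.05. Permutation tests used SciPy 1.17.1. The unpaired limma fit was tried on simulated data, which held no effect of library number. The paired fit and limma-voom were not tried in this way. The paired fit takes the library number as a block. Deviations of same-numbered libraries from their group means correlated across genes at 0.754, 0.73, 0.252 and 0.257 for numbers 1 to 4, so the pairing rests on the data, since no label gives it. It is less sure for numbers 3 and 4, since shCtrl 3 correlated at 0.463 with HIF1A-KD 4 and shCtrl 4 at 0.613 with HIF1A-KD 3.

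Members and gene lists were chosen with earlier results of these data known. Genes named were every tested member, the 2 highest untested members of each type, HIF1A, called members and the 2 most abundant of each list. Neighbours of HIST1H2BK within 100 kb were named too. H3F3A was added after its values were seen, as were HIST1H4J, MCM2 to MCM7, KRT4, KRT13 and single markers named at or near 0. Alternatives were other pseudocounts, filters, scaling, limma-voom on recovered reads, a term for libraries 1 and 2 against 3 and 4, each of these 2 sets alone, and each library left out. Leaving out a library number from both groups was added after the data were seen.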

Additional observations from a re-analysis of the deposited data

Results flagged for a closer look

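In 9 of 60 groups of 4 libraries examined, the highest library stood apart from the other 3 by Dixon's test at the 95% level. That level holds for independent values from a normal distribution. These RPKM values include zeros, and the groups share the same libraries, so the count is a description only. Library 1 was the library that stood apart in 7 of the 9 groups. In HIF1A-KD 1 these were HIST1H2BF at 4.84 RPKM, HIST1H2BG at 37.0 and HIST1H3D at 7.14 RPKM. In shCtrl 1 they were HIST1H1E at 6.08 RPKM, HIST1H2BG at 25.7, HIST2H2BE at 24.1 and HIST4H4 at 1.45 RPKM. Elsewhere, HIST1H2AG stood apart at 3.37 RPKM in shCtrl 3, and HIST1H2AI at 0.759 RPKM in shCtrl 4, where the other 3 shCtrl libraries were at 0.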

How the results depend on the processing

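HIST1H2BK kept its direction under every alternative run, and its log2 change moved little; what changed was whether it passed. It no longer passed with a pseudocount of 1 (1.28, limma adjusted p = 0.0537) or 0.01 (1.31, 0.0501), with no filter (1.31, 0.0851), with limma-voom on recovered reads (1.31, 0.0614), in libraries 1 and 2 alone (1.29, 0.677) or 3 and 4 alone (1.32, 0.112), with any 1 library left out (1.22 to 1.39), or in the paired fit without number 2 (1.33, 0.0586). Nor did it pass in the unpaired fit without both libraries numbered 1.

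The paired fit (the library number as a block) called 218 genes and 3 members, against 5 genes and 1 member unpaired. Without number 1, 2, 3 or 4 the block called 33, 1, 195 and 182 genes, with 0, 2 and 3 members without number 2, 3 and 4. The 3 without number 4 included HIST1H2AI (adjusted p = 0.0236), then at 0 in every remaining shCtrl library, in place of HIST1H1C (0.0633). Genes called were 3 with either other pseudocount, 1 with no filter, 8 with median-of-ratios scaling, 3 with limma-voom, 102 with a term for libraries 1 and 2 against 3 and 4, 0 in libraries 1 and 2 alone, and 0 to 3 with a library left out. Members called were 2 with that term and 0 with either pseudocount, no filter, limma-voom, libraries 1 and 2 alone, 3 and 4 alone, or any library left out (0 to 0). No member was called unpaired without both libraries numbered 1.

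The members' median log2 change of 0.64 was 0.90 in libraries 3 and 4 alone and 0.39 to 1.17 with a library left out. Log2 ratios of summed levels with a library left out were 0.29 to 1.3 for H1 (1.16 in libraries 3 and 4 alone), 0.067 to 0.96 for H2A, 0.47 to 0.94 for H2B, 0.73 to 1.64 for H3, 0.85 to 2.05 for H4 and 0.36 to 1.06 for all genes. For H4 it was 0.62 in libraries 1 and 2 alone and 2.09 in 3 and 4 alone.

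Directions that turned round were those of members that passed no test. In libraries 1 and 2 alone these were HIST1H1E (−1.33), HIST1H2AG (1.33), HIST1H2BF (0.51), HIST1H3E (1.39) and HIST3H2BB (0.54), and in 3 and 4 alone HIST1H2BH (−0.95). With a pseudocount of 0.01 they were HIST1H2BH (−0.36) and HIST2H2BC (−0.29), and with 1 HIST1H3E (0.23). In the paired fit they were HIST1H2BH without number 1 (−0.12) or 2 (−0.29), HIST1H2AG (0.055), HIST1H3E (0.11), HIST2H2BC (−0.35) and HIST3H2A (−0.027) without number 3, and HIST1H2AG (0.60), HIST1H2BJ (−0.22), HIST1H3E (0.63) and HIST3H2BB (0.18) without number 4. With a library, or number 1 of both lines, left out unpaired, values ran from −0.74 to 0.75 for HIST1H2AG, −0.033 to 0.44 for HIST1H2BD, −1.72 to 0.15 for HIST1H2BF, −0.10 to 1.19 for HIST1H2BG, −0.36 to 1.0 for HIST1H2BH, −0.22 to 1.48 for HIST1H2BJ, −0.20 to 1.09 for HIST1H3D, −0.79 to 1.11 for HIST1H3E, −0.20 to 1.33 for HIST2H2BC, −0.18 to 0.92 for HIST3H2A and −0.88 to 0.44 for HIST3H2BB. The cause was not tested. Of the 24 tested members, 13 were at 0 in at least 1 library, and the part of depth in this was not tested.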
